A study of Mus musculus with 6 samples.

Results

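The nuclear factor I (NFI) genes are 4 in the mouse, Nfia, Nfib, Nfic and Nfix, and all 4 were taken by symbol from the 34981 genes of the deposited table, which was matched to symbols by Ensembl identifier. They were chosen with the difference between BMP2 and PBS libraries in these data already known, so that every difference given for them is a description and not a test. The data are RNA sequencing of B16F10 cells, an established melanoma line of C57BL/6 mice, kept as spheroids within Matrigel, which is an extract of basement membrane. The 3 BMP2 cultures received bone morphogenetic protein 2 (BMP2) at 100 ng/ml for 10 days and the 3 PBS cultures received phosphate-buffered saline for the same time. The labels title the PBS cultures as untreated, name no genetic change in either group, and place 1 culture of each group in each of 3 batches, the repeats of the experiment. All 6 cultures are thus the same line, and nothing in the labels describes separate clones or animals.

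NFI proteins bind DNA as dimers at the palindrome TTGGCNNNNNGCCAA through a conserved N-terminal domain, and differ more in their C-terminal regions, which activate or repress transcription. Nfia and Nfib are known for driving the switch from neurons to glia in the developing nervous system, Nfib for lung maturation and for the melanocyte stem cell niche of the hair follicle, Nfic for tooth root and bone formation, and Nfix for fetal muscle and neural stem cells. In human melanoma cells NFIB has been placed downstream of the transcription factor BRN2 in invasive cells. BMP2 is a secreted relative of transforming growth factor-beta whose receptors act on SMAD proteins.

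The libraries held 27821900 to 36856500 estimated counts. The library PBS 1 stood apart from the others on the first principal component, at -79.7 against -16.8 to 55.5, and had the lowest scaling factor, 0.872. The response genes Id1, Id2, Id3 and Smad6, which BMP receptors induce, were higher in every BMP2 library than in every PBS library. They are 4 of 9 BMP targets listed, of which Smad7 and Bambi overlapped between the groups. None of the 9 passed the edgeR test without batch as a block (adjusted p 0.181 to 0.330 for the 4 named). With the block edgeR called Id2, Smad9, Atoh8 and Nog, all higher with BMP2, where it called 0.735% of all genes. The Wald test of DESeq2 called 7 of the 9, all but Smad7 and Bambi and all higher, where it called 1.01% of all genes. The 8 melanocyte genes checked, among them Tyr, Dct, Pmel and Sox10, were all detected, with a summed level of 28893 to 39139.7 CPM (estimated counts scaled to library size, with TMM factors) in BMP2 libraries and 23675 to 26342 CPM in PBS libraries. Summed levels of leukocyte markers were 2.15 to 3.22 CPM in BMP2 libraries and 3.74 to 5.01 CPM in PBS libraries, and those of fibroblast markers 3.12 to 5.31 CPM in BMP2 libraries and 4.38 to 8.52 CPM in PBS libraries. Endothelial markers summed to 5.04 to 15.9 CPM in BMP2 libraries and 6.54 to 9.52 CPM in PBS libraries, and 3 keratinocyte and epithelial markers to 0.445 to 0.759 CPM in BMP2 libraries and 0.163 to 0.759 CPM in PBS libraries. Of these lists only Cd68, Col1a1, Pdgfra, Pecam1, Vwf and Cdh1 had enough counts to be tested, the others were at or near 0, and Cdh5 and Tek had 0 counts throughout. The part of these summed levels in the differences below was not tested.

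Nfix, whose protein switches muscle progenitors to the fetal programme, showed the clearest separation between the groups. It lay at 2.88, 2.92 and 2.17 CPM in BMP2 libraries 1, 2 and 3, from 84, 100 and 87 estimated counts. In PBS libraries 1, 2 and 3 it lay at 6.08, 9.98 and 8.20 CPM, from 187, 355 and 274 estimated counts. In such bulk samples, fewer cells of a kind and less RNA per cell cannot be told apart. Every BMP2 library was below every PBS library, and the mean was 2.66 ± 0.42 CPM in BMP2 libraries and 8.09 ± 1.95 CPM in PBS libraries (SD, n = 3 each). Within batches 1, 2 and 3, the BMP2 library held 47.3%, 29.3% and 26.5% of the level of its PBS partner. The log2 fold change of the fit over all genes was -1.61 (SE 0.31), and it lay between -1.78 and -1.42 with any 1 library left out. Among all 12929 genes tested, 5.72% had their 3 BMP2 libraries all below their 3 PBS libraries, and since the gene was chosen on this contrast nothing is read from that share.

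Nfib, which acts with Nfia in glial and cortical development, had the widest spread. It lay at 63.9, 37.6 and 34.1 CPM in BMP2 libraries 1, 2 and 3. In PBS libraries 1, 2 and 3 it lay at 229.5, 69.4 and 58.0 CPM. The library PBS 1 was 3.60 times the mean of the other PBS libraries, and the groups overlapped, since BMP2 1 was above PBS 3. In each batch the BMP2 library was the lower one, at 27.8%, 54.2% and 58.8% of its PBS partner in batches 1, 2 and 3. The log2 fold change was -1.40 (SE 0.53), and -1.16 (SE 0.23) with batch as a block. Without PBS 1, the library that stood apart, it was -0.50, with a mean of 45.2 ± 16.3 CPM in the 3 BMP2 libraries (SD) against 63.7 CPM in the other PBS libraries, and with the whole of batch 1 left out and the block kept it was -0.83.

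Nfia, a regulator of gliogenesis and of blood lineages, differed less. It lay at 23.4, 21.0 and 17.6 CPM in BMP2 libraries 1, 2 and 3, and at 35.2, 27.7 and 18.1 CPM in PBS libraries 1, 2 and 3. The BMP2 library was at 66.4%, 75.7% and 97.5% of its PBS partner in the 3 batches, so that batch 3 showed nearly equal levels. The groups overlapped, and the log2 fold change of -0.39 (SE 0.27) became -0.16 without PBS 1 and -0.60 without PBS 3.

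Nfic, needed for root formation in teeth, was the only member without a common direction over the batches. It lay at 45.7, 83.7 and 91.7 CPM in BMP2 libraries 1, 2 and 3, and at 68.2, 93.7 and 77.6 CPM in PBS libraries 1, 2 and 3. The BMP2 library was lower than its PBS partner in batches 1 and 2 and higher in batch 3, at 118.2% of it. The log2 fold change was -0.12 (SE 0.28), with means of 73.7 ± 24.6 CPM in BMP2 libraries and 79.9 ± 12.9 CPM in PBS libraries (SD, n = 3 each).

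**Figure D1:**
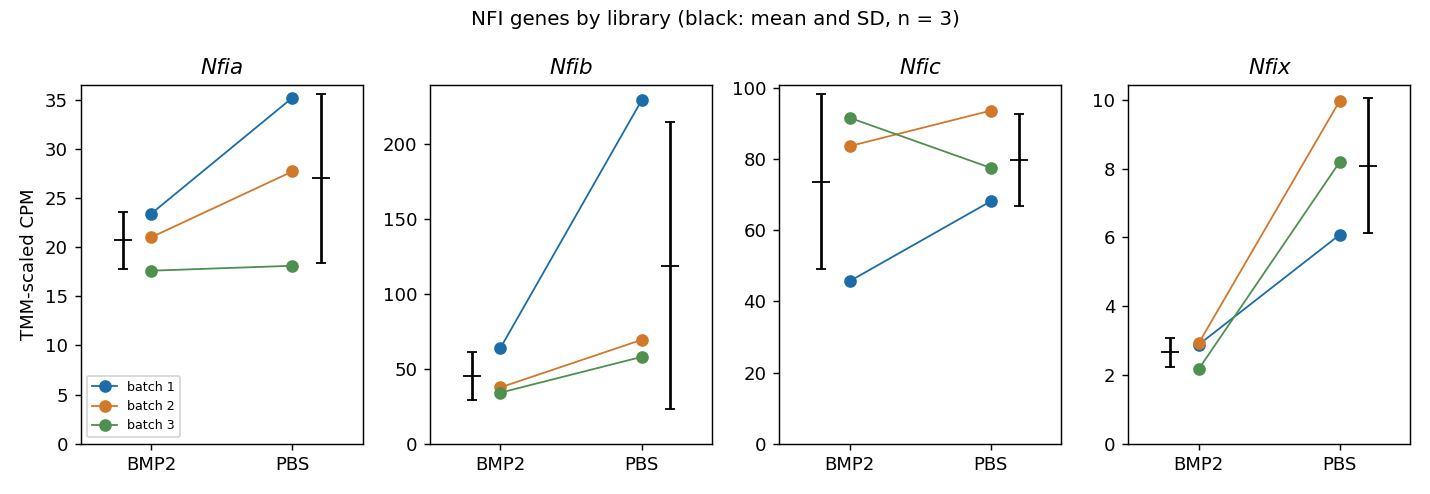
TMM-scaled CPM of Nfia, Nfib, Nfic and Nfix (y axis, from 0) in BMP2 and PBS libraries (x axis), with a line joining the 2 libraries of a batch and black marks for the mean and SD of 3 libraries. The 3 BMP2 values of Nfix, 2.17 to 2.92 CPM, all lie below its PBS values, and the PBS value of Nfib in batch 1, 229.5 CPM, stands apart.

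The batches thus ordered the members differently. The log2 difference of Nfib was largest in batch 1, at -1.84, against -0.88 in batch 2 and -0.77 in batch 3. That of Nfix was smallest in batch 1, at -1.08, against -1.77 in batch 2 and -1.92 in batch 3. For Nfia the differences were -0.59, -0.40 and -0.037 in batches 1, 2 and 3, and for Nfic they were -0.58, -0.16 and 0.24. Nfia, Nfib and Nfix were thus lower with BMP2 in all 3 batches and Nfic in 2 of them, where 21.1% of all tested genes were lower in all 3.

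**Figure D2:**
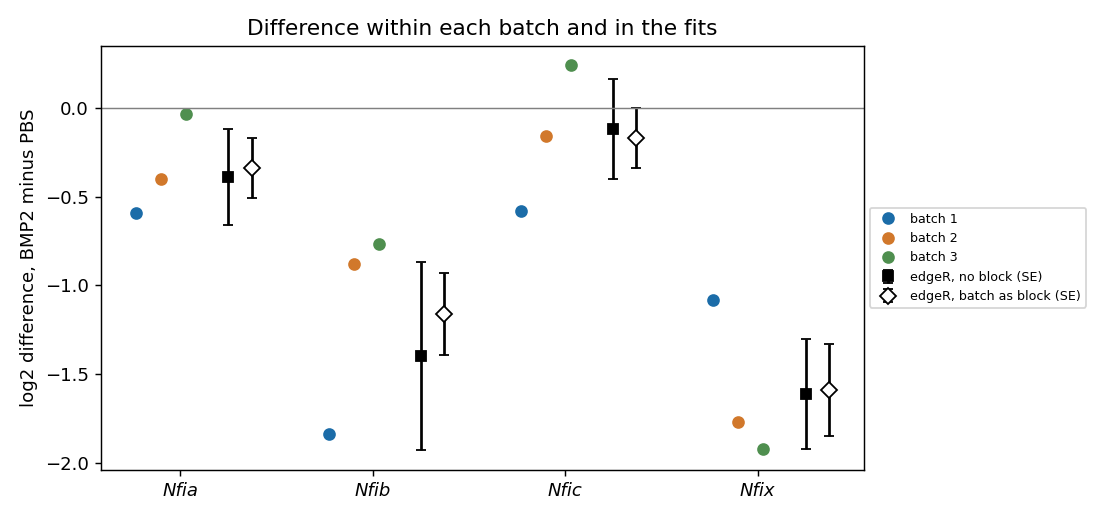
Log2 difference, BMP2 minus PBS (y axis), of each NFI gene (x axis) within batches 1, 2 and 3 (coloured points) and in the edgeR fits without and with batch as a block (black squares and open diamonds, bars SE). Batch 1 holds the lowest point of Nfib, -1.84, and the highest point of Nfix, -1.08.

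All 4 genes passed the filter on low counts. The edgeR quasi-likelihood fit with Benjamini-Hochberg adjustment over all genes called 0 of the 4 members at 0.05, where it called 0.0464% of all genes, and with batch as a block it again called 0 of 4, where it called 0.735%. At an unadjusted p under 0.05, Nfib and Nfix were past the limit without the block, where 5.38% of all genes were, and with it, where 17.0% were. The Wald test of DESeq2 called 1 of the 4, Nfix, where it called 1.01% of all genes. The median log2 fold change of the 4 members was -0.89, against 0.01 over all tested genes. Since the members were chosen on this contrast, these counts and medians describe them and support nothing further.

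**Figure D3:**
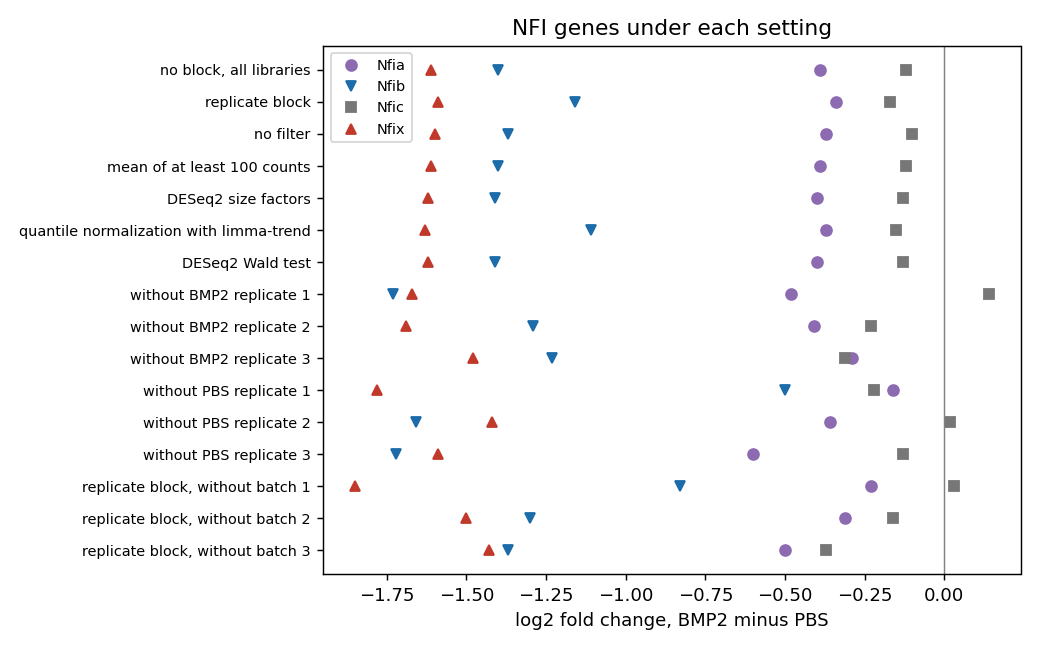
Log2 fold change, BMP2 minus PBS (x axis), of the 4 NFI genes under each model, filter, scaling and set of libraries (y axis). Nfix stays between -1.85 and -1.42, Nfib ranges from -1.73 to -0.50, and Nfic lies on either side of 0.

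The levels of the members were compared with one another per length, as CPM per kilobase of the union of annotated exons. Nfic had the highest level in 5 of 6 libraries, at 11.1 ± 3.69 in BMP2 libraries and 12.0 ± 1.92 in PBS libraries. Nfib followed at 3.02 ± 1.09 in BMP2 libraries and 7.94 ± 6.39 in PBS libraries. Nfia was at 1.90 ± 0.27 in BMP2 libraries and 2.48 ± 0.79 in PBS libraries, and Nfix at 0.361 ± 0.057 in BMP2 libraries and 1.10 ± 0.27 in PBS libraries (CPM per kilobase, SD, n = 3 each). Nfic and Nfib did not overlap in BMP2 libraries but did in PBS libraries, where PBS 1 held more Nfib, at 15.3, than Nfic, at 10.3 CPM per kilobase. Nfib did not overlap with Nfia, nor Nfia with Nfix, in either group.

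This order held in 83.3% of the libraries with the exon union and in 50.0% with the median length of the annotated transcripts. With the median transcript length Nfix was below Nfia in all 3 BMP2 libraries, at 1.51 to 2.04 against 1.94 to 2.58 CPM per kilobase, and above it in all 3 PBS libraries, at 4.24 to 6.96 against 1.99 to 3.88. The transcripts in use were not given in the table, so the length that applies to each gene is not known.

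As a share of the summed level of the family per kilobase of exon union, Nfix held 1.64% to 2.86% in BMP2 libraries and 2.79% to 6.08% in PBS libraries. Nfib held 12.6% to 31.2% in BMP2 libraries and 20.5% to 51.7% in PBS libraries. Nfic held 50.3% to 76.7% in BMP2 libraries and 34.7% to 63.8% in PBS libraries. Nfia held 8.98% to 15.7% in BMP2 libraries and 9.04% to 11.2% in PBS libraries, and for all 4 genes the ranges of the groups overlapped. The family sum was 16.4 ± 2.35 in BMP2 libraries and 23.6 ± 5.70 CPM per kilobase in PBS libraries (SD, n = 3 each).

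**Figure D4:**
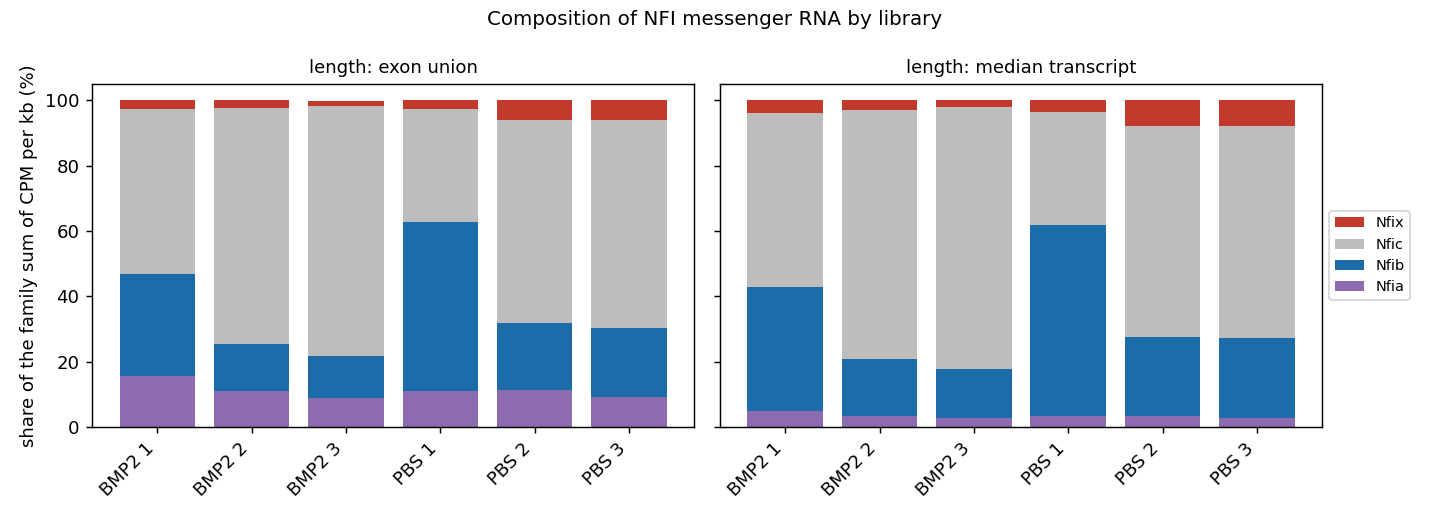
Share of each NFI gene in the summed CPM per kilobase of the family (y axis, percent) in each library (x axis), with lengths from the exon union (left) or the median transcript (right). Nfic holds the largest share in all libraries except PBS 1, where Nfib holds 51.7% by exon union.

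Among all tested genes, 82.7% had a lower mean CPM than Nfib, 81.5% than Nfic, 52.4% than Nfia and 23.9% than Nfix, without regard to length. The genes lie on GRCm38 chromosome 4 (Nfia, ENSMUSG00000028565, 97772734 to 98118874, plus strand, and Nfib, ENSMUSG00000008575, 82290173 to 82705750, minus strand), chromosome 10 (Nfic, ENSMUSG00000055053, 81396186 to 81455635, minus strand) and chromosome 8 (Nfix, ENSMUSG00000001911, 84699876 to 84800344, minus strand). Of the 31-base stretches of their annotated transcripts, 0.502% for Nfia, 0.386% for Nfib, 0.704% for Nfic and 1.65% for Nfix also occur in other genes, and 2 stretches were shared between members, namely between Nfic and Nfix. The span of Nfix overlaps Lyl1 and G430095P16Rik on the other strand, which had 0 to 4 and 1 to 7 estimated counts in a library. That of Nfia overlaps E130114P18Rik, with 2 to 15 counts. The strand setting of the counting is not known here, so reads of overlapping genes could be exchanged. Annotated genes also overlap Nfib and Nfic on either strand, and of these only the pseudogene Gm11268 within Nfib was measured, at 0 counts. Gm16104, on the strand opposite to Nfic and sharing 31-base stretches with it, was not analysed here.

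Windows of 250 bases upstream of annotated starts were read from RefSeq promoters on GRCm38.p6, which hold 4 starts for Nfix and 1 each for Nfia and Nfic. Windows of Nfix and Nfic are shown because these genes had the largest and the smallest difference between the groups. For Nfix the windows nearest to and farthest from a GENCODE start are shown. The first Nfix window lies 14 bases from an annotated GENCODE start and the Nfic window ends at one, while the second Nfix window belongs to a RefSeq start 5713 bases from the nearest GENCODE start. Capitals mark GGCGCC, a GC-rich element known to bind SMAD proteins, or the single NFI element TTGGC on either strand, and each line runs 5′ to 3′ on the minus strand.
Nfix, chr8:84773411-84773660: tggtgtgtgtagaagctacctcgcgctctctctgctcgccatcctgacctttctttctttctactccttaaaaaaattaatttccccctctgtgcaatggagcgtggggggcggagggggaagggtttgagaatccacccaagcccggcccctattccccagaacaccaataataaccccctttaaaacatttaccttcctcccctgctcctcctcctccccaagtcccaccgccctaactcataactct
Nfix, chr8:84780083-84780332: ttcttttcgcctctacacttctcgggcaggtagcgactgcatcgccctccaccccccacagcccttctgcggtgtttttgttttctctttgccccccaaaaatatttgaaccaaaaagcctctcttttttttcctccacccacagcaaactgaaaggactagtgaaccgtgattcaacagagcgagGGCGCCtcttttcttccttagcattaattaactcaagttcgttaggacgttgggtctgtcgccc
Nfic, chr10:81427174-81427423: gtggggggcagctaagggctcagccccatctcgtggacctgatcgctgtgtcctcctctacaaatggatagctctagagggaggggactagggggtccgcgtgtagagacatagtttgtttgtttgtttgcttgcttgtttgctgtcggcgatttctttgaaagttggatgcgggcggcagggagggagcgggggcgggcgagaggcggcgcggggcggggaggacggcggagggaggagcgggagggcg
Of the 6 windows searched, only the second Nfix window shown holds GGCGCC. This element occurs in 9.59% of the 32851 promoter windows of the same length, searched on both strands. That share is per window, while 6 were searched, so nothing is read from this match. The single element TTGGC was found in the 2 Nfix windows not shown and occurs in 41.5% of all windows. Their RefSeq starts lie 1459 and 521 bases from the nearest GENCODE start. The whole palindrome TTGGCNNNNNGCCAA was in none of these 6 windows and in 0.0365% of all windows. No window of Nfib was searched, and that of Nfia belongs to a RefSeq start 190791 bases from the nearest GENCODE start. The motifs can overlap, since the palindrome contains the single element at either end. The GC content was 52.4% and 49.2% for the Nfix windows shown and 63.2% for that of Nfic, with a median of 52.4% over all windows. A match of letters shows no binding.

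Genes known to act with the NFI factors were followed as 4 lists, with 52 genes in all, of which 31 were tested and 7 had 0 counts in every library. Of these 31, 0 rose and 0 fell in the edgeR quasi-likelihood fit, with Benjamini-Hochberg adjustment over all genes, where 0.0464% of all genes were called, and again 0 and 0 with batch as a block, where 0.735% were. At an unadjusted p under 0.05, 2 were higher and 3 were lower without the block, against 5.38% of all tested genes past this limit in either direction, and 6 were higher and 7 were lower with it, against 17.0%. The Wald test of DESeq2 called 1, Klf4, which fell, where it called 1.01% of all genes. The median log2 fold change was -0.21, against 0.01 over all tested genes. In 4 of the 31 all BMP2 libraries were below all PBS libraries, where 5.72% of all tested genes were. In another 4 they were all above, where 6.42% were. The lists were chosen with earlier results of these data known, so these counts and medians describe them and support nothing further.

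Among 9 tested upstream regulators, Notch1, a receptor whose signal precedes Nfia in neural progenitors, had the largest difference. It was at 0.171, 0.234 and 0.624 CPM in BMP2 libraries 1, 2 and 3, and at 1.27, 1.49 and 2.28 CPM in PBS libraries 1, 2 and 3. The groups did not overlap at these low levels. The log2 fold change was -2.26 (SE 0.60, edgeR quasi-likelihood adjusted p 0.548, or 0.0843 with batch as a block). Rbpj, the DNA-binding partner of Notch, and Sox9, which induces Nfia in the mouse spinal cord, had log2 fold changes of -0.40 (SE 0.25) and -0.42 (SE 0.29). That of Rbpj was -0.20 without BMP2 3. That of Sox9 was -0.17 without PBS 1 and -0.0078 with the block without batch 1, and its log2 difference was -1.21 in batch 1, -0.033 in batch 2 and 0.032 in batch 3. Pou3f2, the gene of BRN2, lay at 1.57 to 3.25 CPM in BMP2 libraries and 2.43 to 3.09 CPM in PBS libraries, with a log2 fold change of -0.21 (SE 0.39), or 0.023 without BMP2 3. The ubiquitin ligase genes Smurf1 and Smurf2 had log2 fold changes of -0.086 (SE 0.17) and 0.016 (SE 0.19), and that of Smurf2 was -0.10 without PBS 1 and 0.11 without PBS 2. None of these passed over all genes.

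Among 6 tested partner genes, Sp1, a zinc-finger factor that shares promoters with NFI, was at 97.8 ± 10.9 CPM in BMP2 libraries and 153.7 ± 49.2 CPM in PBS libraries (log2 fold change -0.65, SE 0.25). The groups did not overlap, though PBS 1 was again the highest PBS library, at 207.0 CPM. Ski, a repressor of SMAD activity that can bind NFI, lay at 28.5, 69.5 and 61.0 CPM in BMP2 libraries and 13.2, 52.7 and 49.0 CPM in PBS libraries of batches 1, 2 and 3. It was higher with BMP2 in each batch while the groups overlapped (log2 fold change 0.47, SE 0.52). The general transcription factor genes Gtf2b and Tbp had log2 fold changes of 0.43 (SE 0.25) and 0.35 (SE 0.20). For both, all BMP2 values were above all PBS values. Without PBS 1 the log2 fold changes were -0.38 for Sp1, 0.053 for Ski, 0.20 for Gtf2b and 0.23 for Tbp. None of these 4 genes passed the test over all genes.

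Of 9 tested targets in the nervous system, Fabp7, a fatty acid binding protein of radial glia with NFI sites in its promoter, had the smallest unadjusted p. It lay at 23.0, 38.0 and 33.1 CPM in BMP2 libraries and at 13.3, 16.9 and 18.1 CPM in PBS libraries of batches 1, 2 and 3. All BMP2 values were above all PBS values, as they were for 6.42% of all tested genes, and the log2 fold change was 0.96 (SE 0.25, edgeR quasi-likelihood adjusted p 0.513, or 0.0641 with batch as a block). Hes1, a Notch effector that Nfia represses in mouse brain, had a log2 fold change of 0.96 (SE 0.46) with overlapping groups, and of 0.58 without BMP2 2. Efnb1, an ephrin ligand, had one of -0.51 (SE 0.29), with all BMP2 values below all PBS values.

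Of 7 tested targets in other tissues, Klf4, which Nfic regulates in odontoblasts, was at 1.99, 2.10 and 1.65 CPM in BMP2 libraries and at 3.55, 5.90 and 4.76 CPM in PBS libraries of batches 1, 2 and 3. The groups did not overlap, and the log2 fold change was -1.31 (SE 0.34, edgeR quasi-likelihood adjusted p 0.538, or 0.125 with batch as a block). Mitf, the master regulator of melanocytes, was at 297.9 ± 29.0 CPM in BMP2 libraries and 199.0 ± 9.04 CPM in PBS libraries (SD, n = 3 each), again without overlap. It did not pass the test over all genes (edgeR quasi-likelihood adjusted p 0.687, or 0.142 with batch as a block). Ezh2, a histone methyltransferase gene repressed by Nfib in mouse brain, was at 78.5 ± 7.31 CPM in BMP2 libraries and 91.2 ± 37.7 CPM in PBS libraries. Its log2 fold change of -0.22 (SE 0.28) became 0.17 without PBS 1. The cell cycle genes Ccnd1 and Cdkn1a had log2 fold changes of 0.80 (SE 0.42) and -0.25 (SE 0.34). That of Ccnd1 was 0.40 without BMP2 3 and 0.48 without PBS 1, and that of Cdkn1a was 0.0058 without BMP2 1 and -0.50 without PBS 1. Edn2, an endothelin gene that Nfib represses in hair follicle stem cells, had 0 counts in all 6 libraries, where 3 counts would be 0.0749 to 0.103 CPM.

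**Figure D5:**
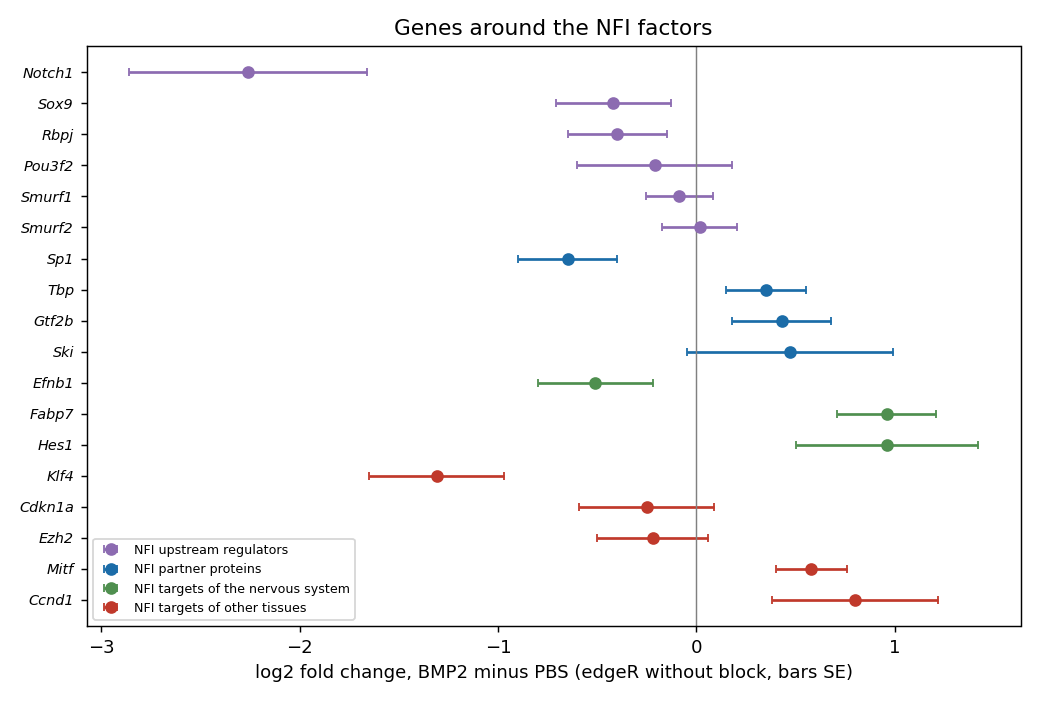
Log2 fold change, BMP2 minus PBS (x axis), with SE bars from the edgeR fit without the block, of 18 named genes around the NFI factors (y axis), coloured by list. Notch1 at -2.26 and Klf4 at -1.31 lie lowest, and Fabp7 and Hes1 at 0.96 lie highest.

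The genes whose log2 CPM followed each member most closely over the 6 libraries differed between members. They were taken from the tested protein-coding genes with a mean of at least 10 CPM, without predicted or provisionally named genes. The 6 points share their groups and batches, so the coefficients are descriptions. For Nfix they were Gstm1, a glutathione transferase gene, Scarb1, a lipoprotein receptor gene, and Myadm, with Pearson r of 0.9949, 0.9762 and 0.9747. Gstm1 lay at 93.6, 96.9 and 74.2 CPM in BMP2 libraries and at 153.7, 233.3 and 222.2 CPM in PBS libraries of batches 1, 2 and 3. All 3 of these genes, like Nfix, had BMP2 libraries below all PBS libraries, as 5.72% of all tested genes did. They were picked for following Nfix over these same libraries, so nothing is read from that separation.

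For Nfib they were the ribosomal protein genes Rpl13 and Rplp2 and the respiratory complex I gene Ndufs5, with r of 0.9971, 0.9953 and 0.9934. Like Nfib, which they were picked to follow, all 3 were highest in PBS 1. Rpl13 lay at 652.4 CPM there, against 259.7 to 377.3 CPM in the other libraries. For Nfia they were Mta3, Mef2c and Glul, with r of 0.9995, 0.9960 and 0.9917, and for Nfic they were Pex6, Smarca4 and Mospd3, with r of 0.9931, 0.9891 and 0.9863. None of the 12 genes named here was closest to more than 1 member.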

How the data were processed

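RNA of 6 cultures was sequenced, 3 with BMP2 and 3 with PBS. The authors deposited estimated counts per gene, made with kallisto 0.44.0 for build GRCm38.p6, as the submitters' processing notes list them and per the labels. Neither the annotation release nor the summing over transcripts is stated. Kallisto divides ambiguous reads by likelihood, so shared stretches can move counts between genes. Of 34981 genes, 34600 were matched by identifier to GENCODE M21, and 381 were not matched. Counts were rounded, and edgeR 4.0.16 (R 4.3.3) gave a quasi-likelihood test per gene after its default filter and TMM scaling, with treatment alone in the model. Log2 fold changes are BMP2 minus PBS, and each SE was worked back from the F statistic. Replicate numbers mark batches in the labels, and deviations from group means correlated at 0.51, 0.25 and 0.52 within batches 1, 2 and 3, so a second fit took batch as a block, with 2 residual degrees of freedom in place of 4. Nothing in the labels says whether the cultures of the batches came from separate thaws, so p-values measure the spread between these cultures.

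Totals were 27821900 to 36856500 counts per library, which carry no molecular identifiers. The other settings were DESeq2 1.42.0, limma 3.58.1 with quantile normalization, other filters and scalings and each library left out, while leaving out each batch was added after seeing the data. Scripts were tested on simulated data. The members, the gene lists and the naming rule were chosen with earlier results of these data known. The rule named all members, 12 context genes in any case, up to 3 genes per context list with the smallest unadjusted p together with any gene called, Id1, Id2, Id3 and Smad6, and the 3 most alike genes for each member. Some listed genes, such as Sp7, were not analysed here.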

Additional observations from a re-analysis of the deposited data

How the results depend on the processing

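The edgeR fit without the block called 6 of 12929 genes, against 95 with the replicate block, 35 with no filter, 130 with the Wald test of DESeq2 and 2 to 10 with 1 library left out. With the block, 531, 27 and 218 genes were called without batches 1, 2 and 3. No NFI gene was called without the block or with it, while Nfix was called by DESeq2, and with the block Nfib and Nfix were called without batch 1 and Nfib without batch 3. Of the genes around the NFI factors, 0 were called in either edgeR fit and 1 by DESeq2, which called 1.01% of all genes. With the block without batch 1, 4 were called (Junb, Fabp7, Cdh2 and Klf4), where 4.11% of all genes were. Over all 15 alternatives, the log2 fold changes of Nfia, Nfib and Nfix stayed below 0. That of Nfic ranged from -0.31 to 0.14 with 1 library left out and was 0.031 with the block without batch 1. With 1 library left out, Ezh2 ranged from -0.39 to 0.17, Cdkn1a from -0.50 to 0.0058, Pou3f2 from -0.48 to 0.023 and Smurf2 from -0.10 to 0.11. With the block without batch 1, Ezh2 was at 0.12 and Smurf2 at -0.079. The order of levels held in 50.0% of libraries with the median transcript length, against 83.3% with the exon union and 80.0% to 100.0% with 1 library left out. The causes of these changes were not tested. Nfix rests on 84 to 355 counts per library, and groups of 3 libraries limit every comparison.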
